A study of Mus musculus with 10 samples.

Results

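Open chromatin was compared at 10 dendritic cell genes in lineage-negative bone marrow cells of 4 mouse genotypes. The genes are Batf3, Id2, Spib and Tcf4, which encode transcriptional regulators, and Siglech, Bst2, Xcr1, Clec9a, Itgax and Ccr7, which encode surface proteins. Peaks of 8 ATAC-seq lists were merged into 103446 regions, and a region belonged to one of these genes if its midpoint lay inside the gene or if the gene was the nearest protein-coding gene within 100 kb. This gave 104 regions, 0.101% of all, of which Tcf4 held 36, Id2 18, Batf3 15, Ccr7 12, Siglech 9, Itgax 4, Xcr1 and Spib 3 each, and Clec9a and Bst2 2 each. ATAC-seq marks DNA that the Tn5 transposase can reach, and the deposited lists give for each library only where a peak begins and ends.

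The double mutant (DM) carries Npm1flox-cA/+, Flt3ITD/+ and Mx1-Cre+, the Flt3-ITD genotype is Flt3ITD/+, the Npm1c genotype is Npm1flox-cA/+ with Mx1-Cre+, and wild type (WT) carries none of these alleles. Each genotype has 2 libraries, and all mice are C57BL/6. Npm1c is a mutant nucleophosmin of acute myeloid leukaemia, and Flt3-ITD is an internal tandem duplication in the FLT3 receptor tyrosine kinase. Mx1-Cre is a recombinase under an interferon-inducible promoter. No Cre is named for the Flt3-ITD and WT libraries, so effects of Npm1c and of Mx1-Cre cannot be told apart. The labels name no animals, ages or inducing treatment. Cells were separated by depletion of lineage-marked cells, and a peak in such bulk material can differ because fewer cells have the site open or because the site is less open in each cell, which cannot be told apart.

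Dendritic cells present antigen, and they arise from bone marrow progenitors under the control of FLT3 and its ligand. Plasmacytoid dendritic cells, which release type I interferon, depend on the E protein TCF4 and also use the ETS factor SPIB. ID2 binds E proteins and keeps them from DNA, and it favours conventional dendritic cells. Among these, the cross-presenting type 1 cells need the leucine zipper factor BATF3 and display XCR1 and CLEC9A. Several of these genes are also used elsewhere, for example TCF4 and SPIB in B cells, CCR7 in lymphocytes and BST2 in any cell exposed to interferon.

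The gene starts of Spib and Itgax lay in regions where some libraries had a peak and others none, and the DNA just before these starts is shown for that reason. Neither region passed a test by allele, and replicates of 1 genotype were split at each. Start positions were known for 8 of the 10 genes. Each sequence runs 5′ to 3′ on the strand of the gene, covers the stretch 250 to 26 bases before the start, and comes from RefSeq on GRCm38.p6. Spib is shown from the minus strand of chr7:44532097-44532321 and Itgax from the plus strand of chr7:128129300-128129524. Capitals mark matches on either strand to short transcription factor motifs.
Spib: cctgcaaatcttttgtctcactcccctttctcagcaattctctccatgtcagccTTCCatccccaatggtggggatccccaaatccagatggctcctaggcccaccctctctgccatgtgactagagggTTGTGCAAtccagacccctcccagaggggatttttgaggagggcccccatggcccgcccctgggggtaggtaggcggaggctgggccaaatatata
Itgax: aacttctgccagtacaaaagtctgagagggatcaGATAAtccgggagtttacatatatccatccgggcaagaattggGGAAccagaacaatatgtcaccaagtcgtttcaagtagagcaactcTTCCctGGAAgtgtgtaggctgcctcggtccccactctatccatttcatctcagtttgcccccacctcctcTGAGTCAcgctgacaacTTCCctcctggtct

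The capitals in Spib are a single ETS core, GGAA, and one CEBP match, TTGNNCAA, a motif found in 5.34% of 32841 RefSeq promoter windows of the same length. Itgax has 4 ETS cores, 1 AP-1 match, TGANTCA, which 6.25% of windows hold, and 1 GATA match, GATAA, which 21.1% hold. The ETS core occurs in 91.5% of windows. The E-box CANNTG, not capitalised, matched at 2 sites in Spib and none in Itgax, and 62.8% of windows hold it. No match to the IRF pair GAAANNGAAA (2.68% of windows), the ETS-IRF composite GGAANNGAAA (2.05%), which includes an ETS core, or the RUNX motif TGTGGT (13%) was found in either window. These matches describe the letters of the windows and do not show binding.

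Of the 104 regions, the DM libraries had a peak in 66 and 83, the Flt3-ITD libraries in 40 and 39, the Npm1c libraries in 53 and 54, and the WT libraries in 71 and 43. DM replicate 2 and WT replicate 1 each called more than their partner. As shares, these calls were 63.5% and 79.8% of the 104 regions in DM, 38.5% and 37.5% in Flt3-ITD, 51.0% and 51.9% in Npm1c, and 68.3% and 41.3% in WT. The shares of all 103446 regions called were 50.4% and 58.0% in DM, 38.7% and 46.0% in Flt3-ITD, 57.0% and 63.1% in Npm1c, and 75.4% and 58.2% in WT. Both DM libraries thus called a larger share of these regions than of all regions, and the other 6 libraries a smaller one. WT replicate 1, with the longest list, called more of the regions than DM replicate 1. All 8 libraries had a peak in 25 of the regions (24.0%, against 25.3% over all regions). The next most frequent patterns were a peak in DM replicate 2 alone, at 11 regions (10.6%, against 6.73% over all), and a peak in both DM libraries and no other, at 10 regions of 7 genes (9.62%, against 5.13% over all). A further 7 regions (6.73%, against 8.38% over all) were called in all Npm1c and WT libraries and in no library with the Flt3-ITD allele, 6 of them at Tcf4.

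**Figure D1:**
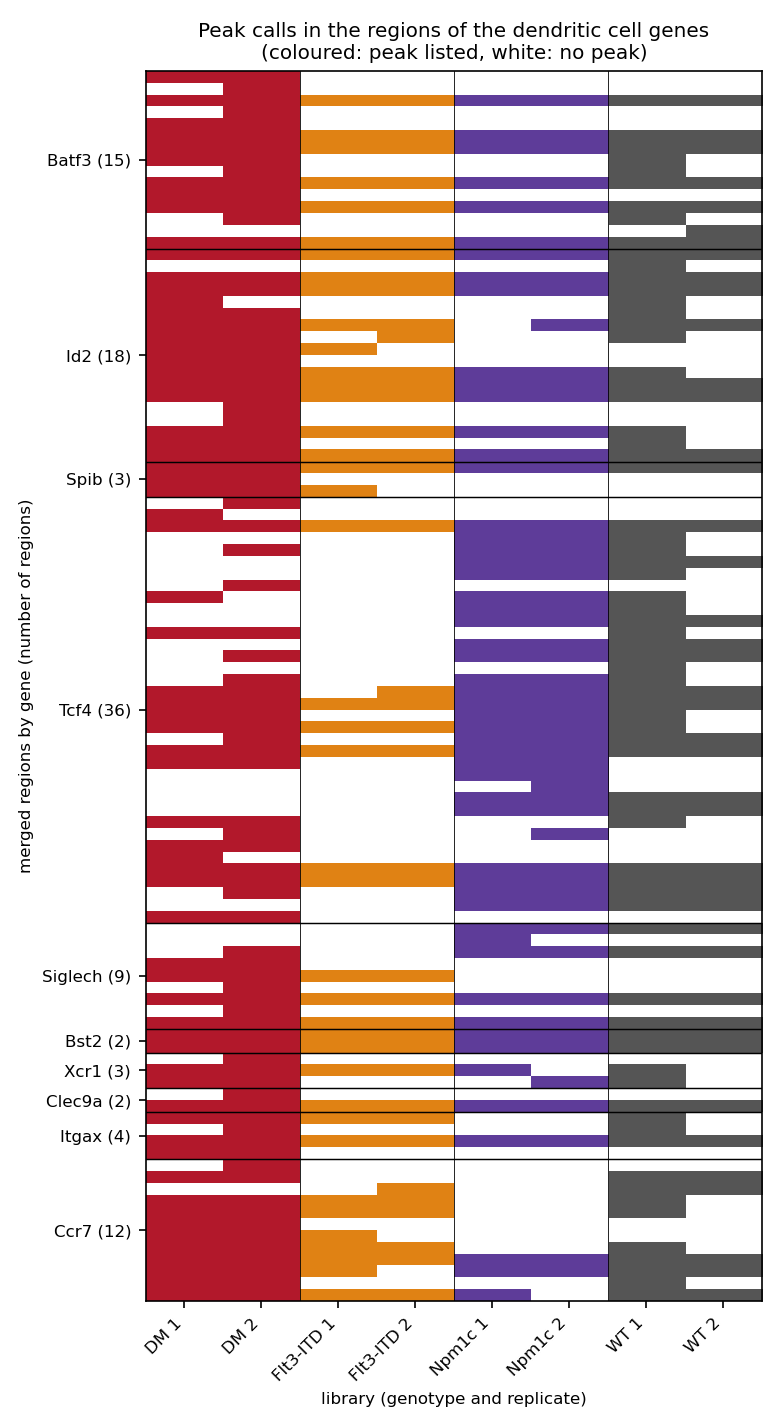
Peak calls at the 104 regions of the 10 genes (rows, ordered along the chromosome within each gene) in the 8 libraries (columns, by genotype and replicate), where a coloured cell is a listed peak and a white cell none. The DM columns are filled at most genes, with 66 and 83 regions called. At Tcf4 the Npm1c columns hold 25 and 27 of 36 regions and the WT columns 26 and 15, while the Flt3-ITD columns are emptiest, with 6 and 7.

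Batf3 (chr1:191098414-191108943, plus strand) had peaks in 10 and 14 of its 15 regions in DM, 6 and 6 in Flt3-ITD, 6 and 6 in Npm1c, and 9 and 7 in WT. Of these regions, 3 were called in both DM libraries and nowhere else. They lay 3193 bp upstream of the gene (chr1:191095049-191095394, with 227 and 346 bp covered in DM), 1170 bp downstream (chr1:191109935-191110292, 352 and 287 bp) and 14987 bp downstream (chr1:191123759-191124101, 343 and 247 bp). The region at the gene start (chr1:191097243-191098741) had a peak in every library, but its covered length was uneven. It measured 1240 and 1359 bp in DM, 415 and 332 bp in Flt3-ITD, 846 and 779 bp in Npm1c and 1443 and 1410 bp in WT, so the Flt3-ITD libraries were the narrowest and did not overlap the others. Peaks of the Flt3-ITD libraries also covered the fewest bases over all regions, and the share of regions with this pattern was not counted.

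To set genes beside each other, the bases covered by peaks in a gene's regions were divided by all bases that the library's peaks cover, in bp per Mb. On this scale Batf3 stood at 174 and 217 bp per Mb in DM, 99.1 and 81.2 in Flt3-ITD, 85.2 and 78.4 in Npm1c, and 109 and 106 in WT. Both DM libraries thus lay above the other 6 on this scale, and the Flt3-ITD and Npm1c libraries lay below both WT libraries. Before the division, DM covered 5220 and 7371 bp and WT 5462 and 4227 bp, so DM and WT overlapped.

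Id2 (chr12:25093799-25096092, minus strand) has regions spread over more than 90 kb, with 17 of its 18 midpoints outside the gene. Peaks were called in 15 and 16 of them in DM, 10 and 10 in Flt3-ITD, 8 and 9 in Npm1c, and 14 and 7 in WT, where the replicates were far apart. Coverage was 303 and 300 bp per Mb in DM, 218 and 188 in Flt3-ITD, 111 and 114 in Npm1c, and 174 and 122 in WT. DM was highest and Npm1c lowest, with no overlap between either and the other genotypes. The start region (chr12:25095859-25096878) was called in every library, with 866 and 997 bp covered in DM, 784 and 753 bp in Flt3-ITD, 919 and 590 bp in Npm1c, and 1000 and 769 bp in WT. These ranges overlap between all genotypes except DM and Flt3-ITD. Away from the start, a region 59561 bp upstream (chr12:25155387-25155920) had a peak in both DM libraries alone, covering 293 and 534 bp. A region 970 bp downstream (chr12:25092209-25093449), singled out after its values were seen, was open in all libraries and covered 1165 and 1209 bp in DM, 354 and 428 bp in Flt3-ITD, 409 and 442 bp in Npm1c, and 859 and 590 bp in WT.

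Spib (chr7:44525995-44532087, minus strand) has 3 regions. The start region (chr7:44531878-44532376), which contains the Spib sequence printed above, had peaks of 333 and 499 bp in DM and a peak of 281 bp in Flt3-ITD replicate 1. It had none in Flt3-ITD replicate 2, in Npm1c or in WT. A region inside the gene (chr7:44531207-44531563) had peaks of 302 and 357 bp in DM and none elsewhere. The remaining region, also inside the gene (chr7:44527464-44528469), was open throughout and covered between 768 and 1006 bp. Coverage was 50.5 and 51.1 bp per Mb in DM, 48.0 and 28.1 in Flt3-ITD, 19.4 and 19.4 in Npm1c, and 20.04 and 24.4 in WT.

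Tcf4 (chr18:69343429-69687967) had its highest mean coverage in bp per Mb in Npm1c, the genotype in which the means of Batf3, Id2 and Spib were lowest. At Batf3 the Npm1c and Flt3-ITD libraries overlapped on this scale. Before the division Batf3 was lowest in Flt3-ITD, at 2400 and 2417 bp, against 3372 and 3384 bp in Npm1c. The 36 regions of Tcf4 were called 16 and 21 times in DM, 6 and 7 times in Flt3-ITD, 25 and 27 times in Npm1c, and 26 and 15 times in WT. Coverage was 267 and 338 bp per Mb in DM, 162 and 158 in Flt3-ITD, 441 and 423 in Npm1c, and 305 and 276 in WT. Npm1c was highest and Flt3-ITD lowest, both apart from the other genotypes, while DM and WT overlapped.

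Of these regions, 6 had a peak in every Npm1c and WT library and in no DM or Flt3-ITD library, and 5 of the 6 were spread along the gene. In the widest, chr18:69602269-69603244, peaks covered 976 and 724 bp in Npm1c and 459 and 516 bp in WT. Others with the same pattern were chr18:69394650-69395387, chr18:69432757-69433409 and chr18:69603350-69603939, all inside the gene. At chr18:69394650-69395387 the covered length was 562 and 733 bp in Npm1c and 406 and 488 bp in WT, and at chr18:69432757-69433409 it was 643 and 614 bp in Npm1c and 522 and 587 bp in WT.

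Both DM libraries alone had a peak at chr18:69647763-69648170, inside Tcf4, with 218 and 408 bp, and at chr18:69782120-69782528, 94357 bp beyond the gene, with 409 and 339 bp. The region chr18:69595741-69596126, inside the gene and named after its values were seen, was the one region of the 104 that separated the libraries by the Npm1c allele. It covered 304 and 376 bp in DM and 297 and 384 bp in Npm1c, with no peak in Flt3-ITD or WT. A region near the lower-coordinate end of Tcf4 (chr18:69343896-69347070), chosen after its values were seen, was called everywhere and covered 1703 and 1971 bp in DM, 1197 and 1546 bp in Flt3-ITD, 3129 and 3104 bp in Npm1c, and 3070 and 2915 bp in WT. The libraries with the Flt3-ITD allele were narrower there without overlap. Over all regions their peaks also covered fewer bases, 24.2 to 33.9 Mb against 39.6 to 50.2 Mb without the allele. The share of all regions with the same pattern was not counted.

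**Figure D2:**
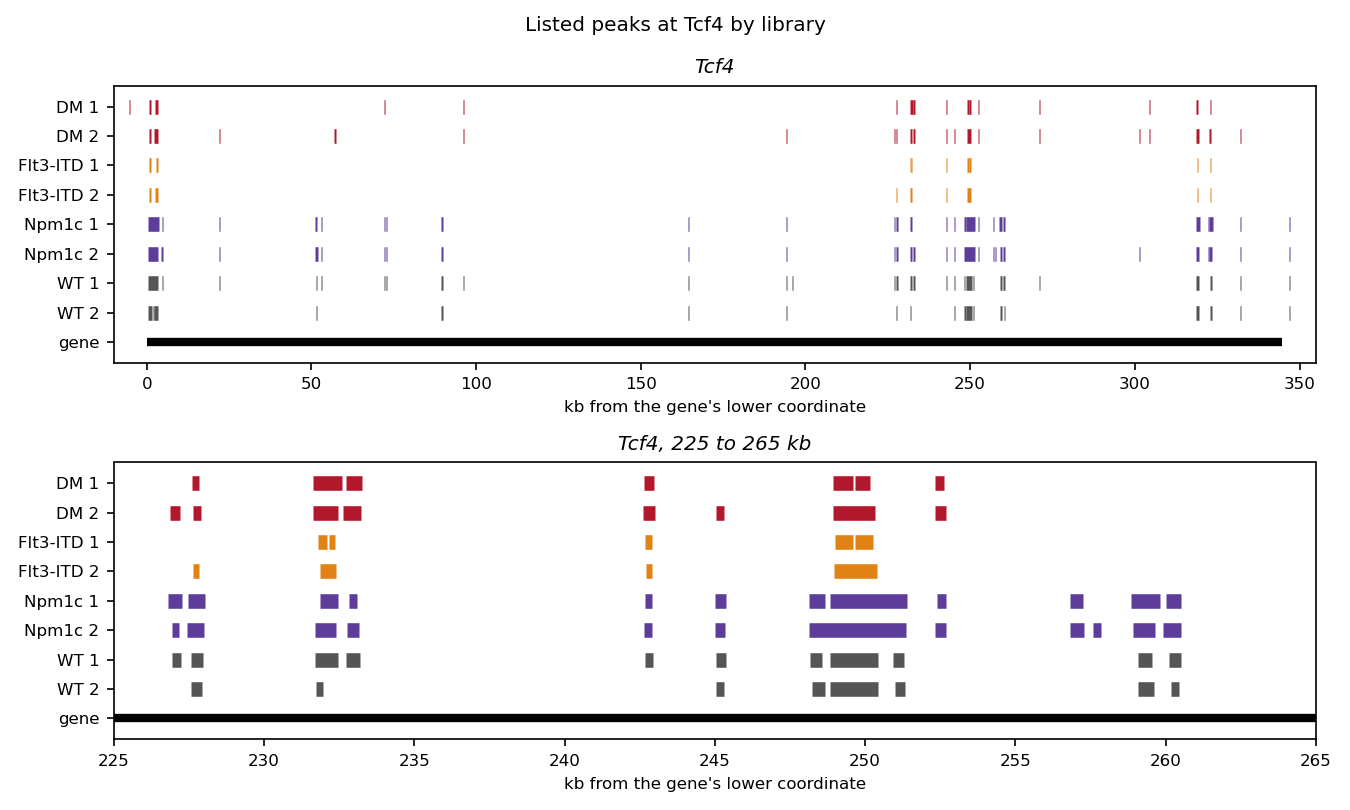
Listed peaks at Tcf4 in each library (rows), as distance in kb from the lower coordinate of the gene (black bar), with the stretch around the wide regions in its second part enlarged below. The Flt3-ITD rows hold 6 and 7 peaked regions, and the regions near 259 to 261 kb have peaks in the Npm1c and WT rows and in none of the DM and Flt3-ITD rows.

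Siglech (chr7:55768154-55779448, plus strand), which encodes a sialic acid-binding lectin of mouse plasmacytoid dendritic cells, had 1 of its 9 regions divided by the Flt3-ITD allele in each direction. The region 2653 bp upstream of the gene (chr7:55765257-55765745) had peaks of 334 and 489 bp in DM and 209 and 200 bp in Flt3-ITD, and none in Npm1c or WT. No other of the 104 regions had this pattern. The opposite held 57053 bp upstream (chr7:55710908-55711294), with no peak in DM or Flt3-ITD, 375 and 333 bp in Npm1c, and 247 and 312 bp in WT. Another, 23378 bp upstream (chr7:55744473-55745080), had peaks of 283 and 608 bp in DM and none in the other 6 libraries. The start region (chr7:55767851-55768461) was open in all, at 536 and 611 bp in DM, 490 and 448 bp in Flt3-ITD, 341 and 396 bp in Npm1c, and 404 and 255 bp in WT. Coverage was 60.9 and 93.5 bp per Mb in DM, 53.9 and 39.2 in Flt3-ITD, 48.6 and 40.1 in Npm1c, and 31.5 and 34.1 in WT.

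Bst2 (chr8:71534255-71537472, minus strand), whose product tetherin holds virus particles at the cell surface and is a plasmacytoid marker in unstimulated mice, had both its regions called in all 8 libraries. The start region (chr8:71536985-71538147) covered 712 and 899 bp in DM, 774 and 993 bp in Flt3-ITD, 1003 and 922 bp in Npm1c, and 1145 and 1008 bp in WT. The region inside the gene (chr8:71535614-71536289), named after its values were seen, was wider in DM, at 648 and 676 bp, than in Flt3-ITD, 473 and 445 bp, Npm1c, 281 and 200 bp, or WT, 399 and 364 bp.

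Clec9a and Xcr1, markers of type 1 conventional dendritic cells, had no peak over their start in any library. CLEC9A recognises actin exposed by dead cells, and XCR1 is a chemokine receptor. At Clec9a (chr6:129408862-129424764, plus strand) the main region lay near the far end of the gene (chr6:129422941-129424527), singled out here after its values were seen. It covered 346 and 332 bp in DM, 337 and 352 bp in Flt3-ITD, 1416 and 1587 bp in Npm1c, and 592 and 798 bp in WT. Npm1c was the widest of all, and the 4 libraries with the Flt3-ITD allele were narrower than the 4 without it. Libraries with the allele covered fewer bases over all regions too, and the share of regions with this pattern was not counted. The other Clec9a region held a peak only in DM replicate 2.

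For Xcr1 (chr9:123852315-123862029, minus strand) 2 and 3 of 3 regions were called in DM, 1 and 1 in Flt3-ITD, 1 and 1 in Npm1c, and 2 and 0 in WT. The region 1487 bp upstream (chr9:123863145-123863888), named after its values were seen, covered 367 and 744 bp in DM, 228 and 243 bp in Flt3-ITD, 271 and 0 bp in Npm1c, and 384 and 0 bp in WT. With 1 of 2 libraries lacking the peak in both Npm1c and WT, this region does not separate the genotypes. Total coverage was 24.0 and 41.0 bp per Mb in DM, 9.42 and 8.17 in Flt3-ITD, 6.85 and 6.32 in Npm1c, and 15.6 and 0 in WT.

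Itgax (chr7:128129526-128150657, plus strand) encodes CD11c, the integrin chain by which conventional dendritic cells are commonly sorted. Its start region (chr7:128128785-128129669), which holds the Itgax sequence printed above, had peaks of 680 and 885 bp in DM and 427 and 307 bp in Flt3-ITD, and none in Npm1c. WT was split, with 680 bp in replicate 1 and none in replicate 2. Inside the gene, chr7:128136986-128137392 had peaks of 304 and 407 bp in DM and none in the other libraries. Coverage was 46.8 and 58.9 bp per Mb in DM, 29.7 and 20.9 in Flt3-ITD, 7.33 and 7.22 in Npm1c, and 26.2 and 6.84 in WT.

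Ccr7 (chr11:99144199-99155077), which encodes the receptor that guides maturing dendritic cells to lymph nodes, had 10 and 11 of its 12 regions called in DM, 7 and 6 in Flt3-ITD, 3 and 2 in Npm1c, and 9 and 5 in WT. Peaks at chr11:99136458-99136964, 7488 bp below the gene's lower coordinate, covered 376 and 507 bp in DM and were absent elsewhere. At chr11:99142408-99143798, 1096 bp below the gene, they covered 617 and 1276 bp in DM and 260 bp in Flt3-ITD replicate 1, with none in the other 5 libraries. Coverage was 138 and 197 bp per Mb in DM, 91.7 and 71.5 in Flt3-ITD, 18.0 and 14.1 in Npm1c, and 62.1 and 37.9 in WT. The genotypes did not overlap on this scale, with DM highest and Npm1c lowest.

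**Figure D3:**
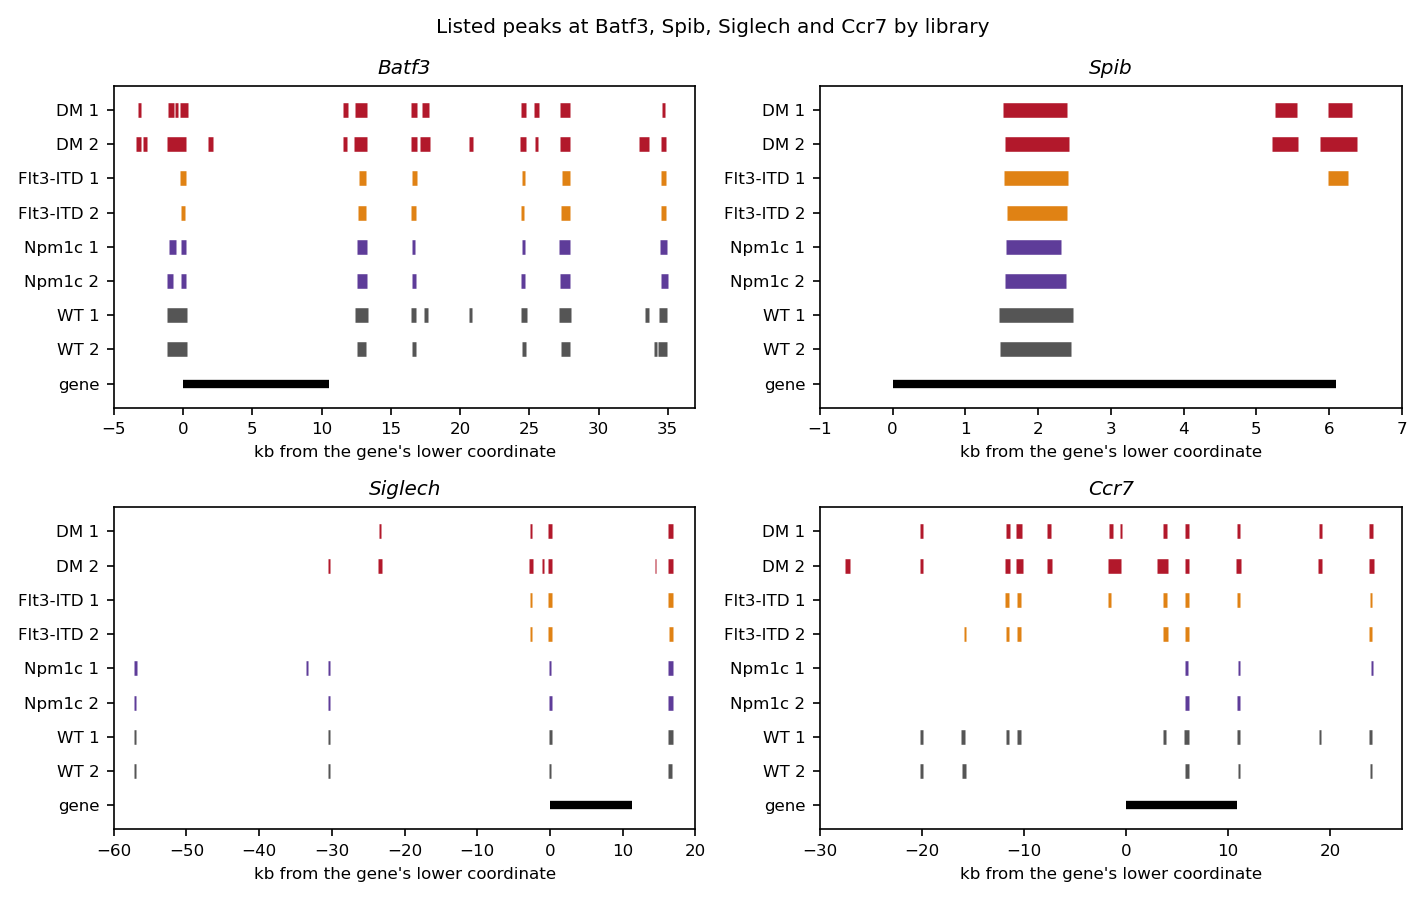
Listed peaks at Batf3, Spib, Siglech and Ccr7 in each library (rows), as distance in kb from the lower coordinate of each gene (black bar). Peaks such as those of Spib inside the gene near 5.4 kb, with 302 and 357 bp covered, appear in the DM rows alone.

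Genotypes were then compared by counting regions that both libraries of one genotype called and both of the other lacked, termed gained where the first-named genotype has the peaks and lost where it lacks them. With 2 libraries against 2, an exact two-sided test cannot go below 0.333, so single regions were not tested here, and each count is read beside the share of all 103446 regions that met the same definition. DM against WT asks what both alleles together with Mx1-Cre change. Of the 104 regions, 15 were gained (14.4%, background 6.93%) and 8 lost (7.69%, background 20.9%). Gains fell at Batf3 (3), Tcf4 (3), Id2, Ccr7, Siglech and Spib (2 each) and Itgax (1), and losses at Tcf4 (6), Ccr7 (1) and Siglech (1). Outside Tcf4, 12 of 68 regions were gained (17.6%) and 2 lost (2.94%), against 8.33% gained and 16.7% lost at Tcf4. Setting Tcf4 apart was not among the planned comparisons, and it removes the gene with most losses. Leaving out a library loosens the definition, so a count can then only rise or stay the same. The gained count was 27 without DM replicate 1 (background 14.1%) and 32 without WT replicate 1 (background 15.7%). Without WT replicate 2, 13 were lost (background 29.4%).

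Against Npm1c, which asks what Flt3-ITD adds to that allele, DM had 26 regions gained (25%, background 12.6%) and 11 lost (10.6%, background 19.3%). Ccr7 gained 7, Id2 5, Batf3 and Tcf4 4 each, and Siglech, Itgax and Spib 2 each. Of the losses 10 were at Tcf4 and 1 at Siglech. Without DM replicate 1 the gained count was 40 (background 20.8%), and with DM replicate 2 left out 17 were lost (background 21.3%). Against Flt3-ITD, which asks what Npm1c with Mx1-Cre adds, DM had 20 regions gained (19.2%, background 10.6%) at 8 genes and none lost (background 3.44%, 1 region without Flt3-ITD replicate 1, background 8.26%). Here Tcf4 gained most, 6, followed by Batf3 with 4 and Id2 and Ccr7 with 3 each. The gained count was 41 without DM replicate 1 (background 19.9%). It was 11 when all lists were shortened to equal length by keeping their widest peaks (background 6.81%). The comparisons of DM share the DM libraries, so their counts are not independent of each other.

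Each single mutant was also set against WT, which asks what Flt3-ITD changes, or what Npm1c together with Mx1-Cre changes. In Flt3-ITD, 1 region was gained (0.962%, background 0.852%), the one upstream of Siglech, and 12 were lost (11.5%, background 16.2%), 9 of them at Tcf4, 2 at Siglech and 1 at Ccr7. In Npm1c, 2 were gained (1.92%, background 2.71%), both at Tcf4, and 2 lost (1.92%, background 6.26%), both at Ccr7. Leaving out a library can only raise these counts or keep them, and the largest rises came with a WT library left out. Without WT replicate 1, Flt3-ITD gained 9 (background 4.62%) and Npm1c 12 (background 7.49%). Without WT replicate 2, Flt3-ITD lost 32 (background 29.7%) and Npm1c lost 19 (background 17.3%). Without replicate 2 of Flt3-ITD, 4 were gained in Flt3-ITD (background 1.34%), and without replicate 1 of Npm1c, 4 in Npm1c (background 6.19%). With lists of equal length, Flt3-ITD gained 6 (background 5.85%) and lost 4 (background 6.49%).

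**Figure D4:**
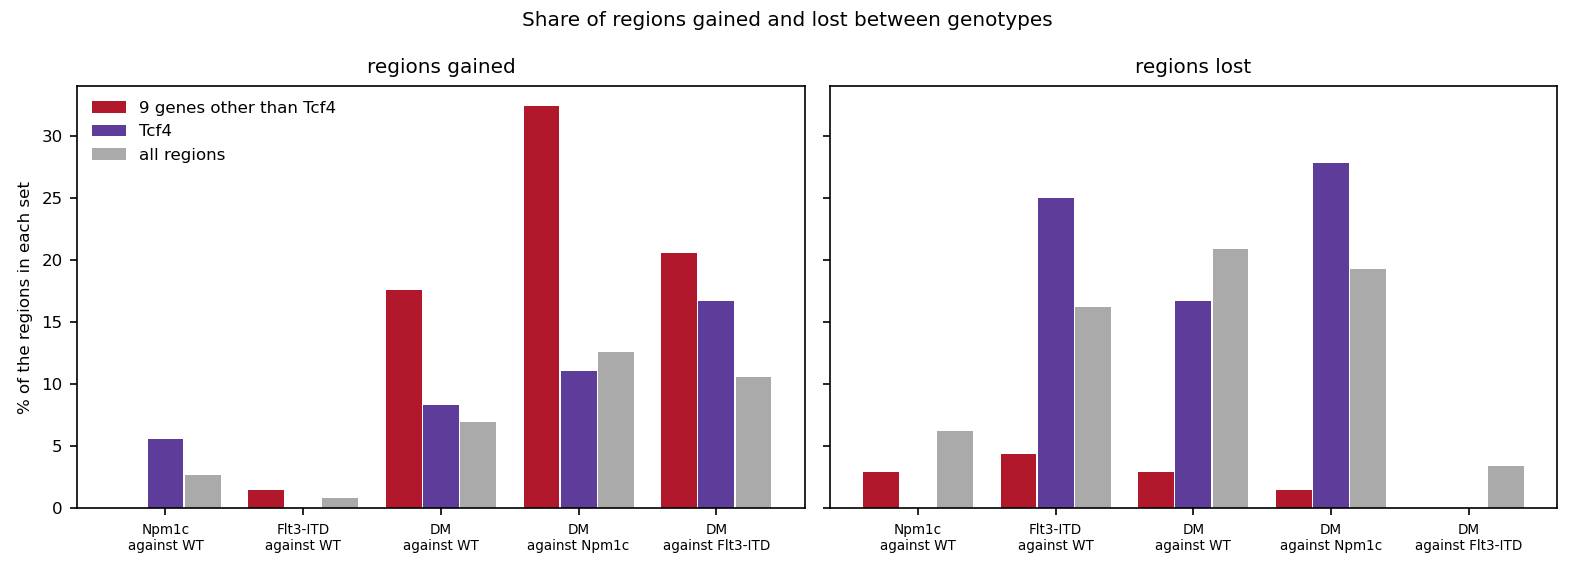
Share of regions gained (left) and lost (right) in 5 comparisons of genotypes, for the 9 genes other than Tcf4 (68 regions), for Tcf4 (36 regions) and for all regions. For DM against WT the gained shares are 17.6%, 8.33% and 6.93% in that order, and the lost shares 2.94%, 16.7% and 20.9%. The split by Tcf4 was not planned.

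Libraries with and without an allele were also compared 4 against 4 by Fisher's exact test per region, adjusted over all regions by the Benjamini-Hochberg method. None of the 104 regions passed an adjusted p of 0.05, and none of the 103446 did (background 0.0% in each direction). For the Flt3-ITD allele 8 regions had an unadjusted exact p under 0.05 (0.0286, the smallest this design gives, adjusted p = 0.32), against 8.94% of all regions. Of these, 1 had peaks in the 4 libraries that carry the allele alone (background 0.566%), and 7 in the 4 that lack it alone (background 8.38%). The 7 became 11 without DM replicate 2 (background 9.03%), and the 1 became 5 without WT replicate 1 (background 2.43%) and 4 without Flt3-ITD replicate 2 (background 0.839%). For the Npm1c allele the region in Tcf4 alone reached that exact p, with peaks only where the allele is present (adjusted p = 1, background 0.156%), and without WT replicate 1 there were 2 (background 1.24%). None had the reverse pattern (background 0.204%), and 1 did without Flt3-ITD replicate 1 (background 0.853%). Setting the 2 DM libraries against the other 6, 10 regions were called in both and in no other (9.62%, background 5.13%), each with Fisher's exact p = 0.0357 (adjusted p = 0.452), and none was called in the other 6 alone (background 2.78%). That count was 21 without DM replicate 1 (background 11.9%) and 16 without WT replicate 1 (background 6.80%).

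Coverage per gene was tested in the same way with a two-sided exact permutation test over 70 relabellings, adjusted over 16618 genes. No gene passed an adjusted p of 0.05 for either allele, and the smallest exact permutation p this design gives is 0.0286. At an unadjusted p under 0.05 the Flt3-ITD allele gave 4 of the 10 genes, against 32.5% of all genes, and the Npm1c allele none, against 11.7%. The 4 genes, all with higher coverage and no overlap (background 16.8%), were Id2, Ccr7, Spib and Bst2, each with exact permutation p = 0.0286 (adjusted p = 0.0878), and none of the 10 was lower without overlap (background 15.7%). For the Npm1c allele no gene of the 10 was apart in either direction (background 4.1% higher and 7.59% lower). Id2 averaged 252 ± 58.3 bp per Mb with the Flt3-ITD allele and 130 ± 29.8 without it (SD, n = 4 each). Of the difference of 122 bp per Mb at Id2, 51.1 was left when regions were assigned within 50 kb in place of 100 kb, with an exact permutation p of 0.0571 (adjusted p = 0.14). Ccr7 averaged 125 ± 55.8 with it and 33.0 ± 22.0 without it, Spib 44.4 ± 10.97 with it and 20.8 ± 2.43 without it, and Bst2 47.9 ± 2.70 with it and 30.9 ± 3.63 without it, all in bp per Mb.

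List length bears on these values. Peaks covered 30.0 and 33.9 Mb in DM, 24.2 and 29.8 Mb in Flt3-ITD, 39.6 and 43.2 Mb in Npm1c, and 50.2 and 39.8 Mb in WT. The median gene differed by 0.064 on the log2 scale between libraries with and without the Flt3-ITD allele after division by covered bases and by -0.491 before it. In covered bases without that division, the groups overlapped at all 4 genes, with an exact permutation p of 0.171 for Id2, 0.114 for Ccr7, 0.114 for Spib and 0.543 for Bst2, each still higher on average with the allele. Clec9a, with 13.2 ± 1.95 bp per Mb with the allele and 26.1 ± 12.2 without it (SD, n = 4 each), had an exact permutation p of 0.114 on the scaled values and 0.0286 on the covered bases (adjusted p = 0.0696). The rank of DM also depended on the division at some genes. In covered bases, DM replicate 1 had 1829 bp at Siglech, below 1922 bp in Npm1c replicate 1. At Xcr1 it had 721 bp, below 785 bp in WT replicate 1. Both DM libraries stayed above all others at Id2, Spib, Itgax and Ccr7, and the share of all genes with this pattern was not counted. The other genotypes did not stay apart at Id2 (Npm1c 4376 and 4919 bp, WT replicate 2 4844 bp) or Ccr7 (Flt3-ITD 2221 and 2128 bp, WT 3117 and 1509 bp). Tcf4 averaged 231 ± 87.2 bp per Mb with the Flt3-ITD allele and 361 ± 82.8 without it (exact permutation p = 0.114). By the Npm1c allele, Tcf4 averaged 367 ± 80.5 bp per Mb with it and 225.3 ± 76.1 without it (SD, n = 4 each, exact permutation p = 0.0857, adjusted p = 0.421).

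**Figure D5:**
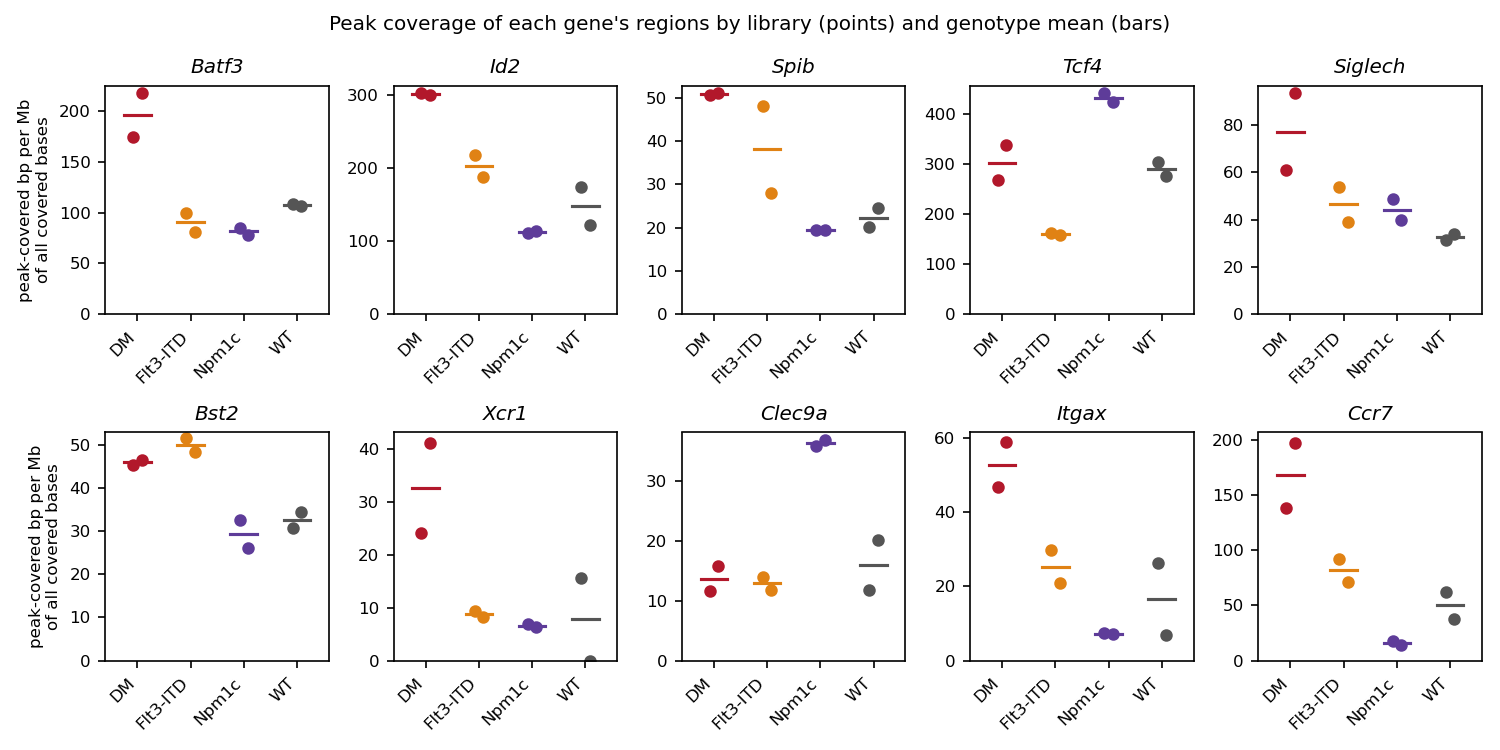
Coverage of each gene's regions by peaks (bp per Mb of all covered bases, axes from 0) in each library (points) with the mean of each genotype (bars). The DM mean is highest at Batf3, Id2, Spib, Siglech, Xcr1, Itgax and Ccr7, the Npm1c mean at Tcf4 and Clec9a, and the Flt3-ITD mean at Bst2.

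A wider list of 36 other dendritic cell genes, chosen with earlier results of these data known, held 426 regions. In DM against WT, 76 of these were gained (17.8%) at 23 genes and 56 lost (13.1%) at 10 genes, against 6.93% gained and 20.9% lost over all regions. Most gains were at Irf8 (22), a factor needed for type 1 cells, Runx2 and Cadm1 (7 each), Ciita (5), the activator of MHC class II genes, and Cd83 and Wdfy4 (4 each). Losses were most frequent at Zeb2 (21), Bcl11a (14) and Cd24a (10). By the Flt3-ITD allele, 23 of the 36 genes had higher coverage without overlap between libraries (background 16.8%) and 3 lower (background 15.7%), and none passed an adjusted permutation p of 0.05. These counts are in bp per Mb and were not made on covered bases without the division.

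Markers of other cells that the fraction could hold were counted by the number of their regions with a peak. All 6 progenitor genes, among them Kit and Cd34, had peaks in every library, in 41 and 48 of 107 regions in DM, 31 and 36 in Flt3-ITD, 65 and 83 in Npm1c, and 75 and 60 in WT. Regions of 6 monocyte and macrophage genes numbered 32 and 40 of 49 in DM, 22 and 21 in Flt3-ITD, 18 and 20 in Npm1c, and 27 and 17 in WT. B cell genes had 14 and 25 of 29 in DM, 8 and 8 in Flt3-ITD, 7 and 9 in Npm1c, and 11 and 5 in WT, with no region at Cd79a. For T and NK cell genes the counts were 7 and 12 of 19 in DM, 3 and 3 in Flt3-ITD, 6 and 9 in Npm1c, and 8 and 6 in WT, with none at Cd3g. Neutrophil genes had 16 and 11 of 18 in DM, 7 and 7 in Flt3-ITD, 6 and 5 in Npm1c, and 10 and 4 in WT, with none at Ly6g or Ngp. Erythroid genes had 7 and 6 of 24 in DM, 8 and 9 in Flt3-ITD, 22 and 19 in Npm1c, and 17 and 16 in WT, with none at Hba-a1. The monocyte, B cell and neutrophil counts were thus higher in both DM libraries than in the other 6. In DM against WT, 27.6% of B cell, 22.4% of monocyte and macrophage, 16.7% of neutrophil and 15.8% of T and NK regions were gained. Progenitor regions gained 2.8% and erythroid regions 0%, against 6.93% over all regions. A gained share above that background was thus not particular to dendritic cell genes. The part of such cells in the differences at the dendritic cell genes was not tested.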

How the data were processed

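Peak lists of 8 HSPC libraries, 2 per genotype, were analysed. The 2 neutrophil samples were not analysed here. Alignment used Bowtie2 and mm10, and peak calling used MACS2, per the submitters' processing notes. Not given in the sources used here are versions, thresholds and read filters. As deposited by the authors, a list holds the chromosome, start and end of each peak and no read number or score, one list per library, so the depth behind a peak is unknown. Lists held 43825 to 80916 peaks. Peaks on chromosomes 1 to 19 and X sharing at least 1 bp were merged, and genes came from RefSeq GRCm38.p6 (21631 protein-coding genes), the assembly of mm10. All 10 gene names matched, and 8 are in the RefSeq promoter table. Python 3.11.15 and scipy 1.17.1 gave the Fisher and permutation tests, which were tested on simulated data. Named regions were those gained or lost in DM against WT inside or within 10 kb of a gene, those dividing the libraries by an allele or by DM, and those at gene starts, with the 6 widest at Tcf4. The genes, lists and rules were chosen with earlier results of these data known. Replicates are called biological in the design text without naming animals, so p-values measure only the spread between these samples. Alternatives were equal list lengths, a peak covering at least 50% of a region, a gene distance of 50 kb, unscaled coverage, a replicate block and single libraries left out. Lists of equal length held the 43794 widest peaks of each library, since no score was given, so narrow peaks of the longer lists were dropped.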

Additional observations from a re-analysis of the deposited data

Results flagged for a closer look

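In libraries without the Flt3-ITD allele, coverage of Itgax was 26.2 bp per Mb in WT replicate 1, far above the nearest of the other 3, 7.33. For Spib, Flt3-ITD replicate 2 at 28.1 bp per Mb lay far below the other 3 libraries with the allele (nearest 48.0), and WT replicate 2 at 24.4 lay above the other 3 without it (nearest 20.04). These are 3 flags from 40 groups of 4 libraries, where chance gives about 1 in 20.

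Some genes moved in opposite directions under the same allele on different backgrounds, with both libraries of a genotype on one side each time, and the difference was not tested. The share of all genes that did so was not counted, so the pattern cannot be called particular to these genes. For Batf3, DM exceeded Npm1c by 114 bp per Mb, while the difference of Flt3-ITD minus WT was -17.4. DM also exceeded Flt3-ITD by 106 at Batf3, with Npm1c minus WT at -25.7. The same contrast of the Npm1c allele gave 98.6 at Id2 with the Flt3-ITD allele present and -35.8 without it, 85.9 and -34.0 at Ccr7, and 12.7 and -2.84 at Spib, all in bp per Mb.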

How the results depend on the processing

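Requiring peaks to cover at least 50% of a region and a gene distance of 50 kb left every count of regions within 1.5 times its value. At 50 kb the coverage difference by the Flt3-ITD allele was 51.1 bp per Mb at Id2 (exact permutation p = 0.0571) and 30.8 at Siglech (exact permutation p = 0.0286, adjusted p = 0.0879), against 122 and 23.3 at 100 kb. With lists of equal length, 8 counts moved further. Lost regions were 5 in DM against WT (15.4% of all regions) and 1 in DM against Flt3-ITD (6.97%), gained regions 11 in DM against Flt3-ITD, and Flt3-ITD against WT gave 6 gained and 4 lost. Splits by the Flt3-ITD allele gave 5 regions called with it alone (3.99% of all) and 3 without it alone (3.89%), and the Npm1c allele 0 (0.265%). Leaving out a library can only raise a count of regions or keep it, since fewer libraries must agree, so the following ranges do not show falls. With single libraries left out, regions gained ranged from 15 to 32 in DM against WT, 28 to 40 in DM against Npm1c and 22 to 41 in DM against Flt3-ITD. They ranged from 1 to 9 in Flt3-ITD against WT and 2 to 12 in Npm1c against WT. Lost regions ranged in the same order from 8 to 13, 12 to 17, 0 to 1, 13 to 32 and 3 to 19. Regions called in DM alone ranged from 10 to 21, with the Flt3-ITD allele alone from 1 to 5, without it from 7 to 11, with the Npm1c allele alone from 1 to 2 and without it from 0 to 1. Coverage differences by the Npm1c allele changed sign with single libraries left out at Bst2 (-7.22 to 0.142), Ccr7 (-9.22 to 51.8), Id2 (-0.678 to 63.5), Itgax (-0.478 to 16.7) and Spib (-0.375 to 10.9, in bp per Mb). The cause was not tested. No gene among the 10, and none of all genes, passed an adjusted permutation p of 0.05 under any setting. A replicate block gave 0 such genes too, since its smallest possible exact p is 0.0556. In the other settings the smallest possible exact permutation p was 0.0286, so passing needed a large share of all genes at that value. A count of 0 thus does not show that the 10 genes are alike with and without an allele. Deviations of equally numbered replicates correlated between -0.221 and 0.183 over 6 pairs of genotypes. With 2 libraries per genotype, these correlations cannot decide whether equally numbered libraries were prepared together. Without read numbers, an absent peak cannot be told from a shallow library.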
